A study of Trichoplusia ni and Spodoptera exigua with 20 samples.

Results

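Fat body RNA of *T*. *ni* larvae that consumed trichostatin A (TSA) was compared with that of control larvae. The libraries were chosen by their labels, as 4 TSA and 3 control libraries, 7 of the 20 in the series, which also holds *T*. *ni* larvae given sulforaphane (SFN) and a second species. *T*. *ni*, the cabbage looper, is a caterpillar that feeds on cruciferous plants. All larvae were wild type and were raised singly on artificial diet. TSA was given at 330 µM, dissolved in ethanol (EtOH) and spread on the diet, from which the solvent then evaporated. Control larvae received the EtOH carrier alone. Fat bodies were dissected at about Day 10, and 3 to 5 larvae were pooled per library, so that each library is an average over a few animals. The sex of the pooled larvae is not given in the sources used here. Levels are given as CPM, the counts of a gene scaled to a library of fixed size, and the genes tested were those averaging over 10 CPM in the 7 libraries, 5597 of the 14384 in the table.

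Histone deacetylases (HDACs) remove acetyl groups from histone tails, and their activity is generally linked to compact, less transcribed chromatin. TSA is a hydroxamic acid first isolated from *Streptomyces* that blocks the zinc-dependent HDACs, and it is widely used as a pharmaceutical reference inhibitor. The fat body of insects combines roles that liver and adipose tissue have in vertebrates. It stores lipid, glycogen and protein and releases most hemolymph proteins. Genes with raised acetylation are often, but not always, more highly transcribed, and cells treated with an HDAC inhibitor usually show genes changing in both directions.

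The genes carry identifiers of the form Tni15G06480, in which the number before the G gives the chromosome. Of the tested identifiers, 0 could be matched to a gene name in the RefSeq table at hand. For this reason the labelled tissue could not be checked against fat body markers, markers of other tissues could not be examined, and the genes are described by their levels, their libraries and their chromosomes. Only 2 genes that fell, 2 that rose and 2 that were not called are named. Total counts ranged from 17625967 to 21176033 per library. The labels carry a library code that takes a first or a second form, and control replicate 3 and TSA replicate 4 carry the second. What the code stands for is not given in the labels. On the first principal component, which held 80.7% of the variance in log2 CPM of the tested genes, the controls lay between -168 and -112.5 and the TSA libraries between 70.6 and 121.8. TSA replicate 4 was the TSA library nearest to the controls.

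Under TSA, far more genes were called as falls than as rises. By the quasi-likelihood test of edgeR, 1365 genes (24.4% of those tested) differed at a Benjamini-Hochberg adjusted p under 0.05, of which 1259 fell (22.5%) and 106 rose (1.89%). The falls were deep, with a median log2 fold change of -8.14, while the median of the rises was 1.64. The median of the falls was -5.63 without control replicate 3 and -5.34 by DESeq2's Wald test, which called 1545 falls and 718 rises. Called or not, 27.2% of tested genes had every TSA library below every control, and 13.3% had every TSA library above. The edgeR fit missed moderate changes in simulated data that held fewer changed genes than were called here. Its counts may leave out changes of that size, but the adjustment is stricter where fewer genes change, so how many is not known. Over all tested genes the median log2 fold change was -0.13. In a bulk sample, fewer cells of a type and less RNA per cell cannot be told apart, and this applies to each fall and rise given here. The share of called genes that fell was 92.2%, but 68.6% with upper-quartile factors and 60.2% without control replicate 1. Library size alone and upper-quartile factors moved the median of all tested genes by -0.31 and 0.28 on the log2 scale, and the rises, which are small, numbered from 35 to 546 over these scalings while the falls numbered from 1192 to 1328.

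**Figure D1:**
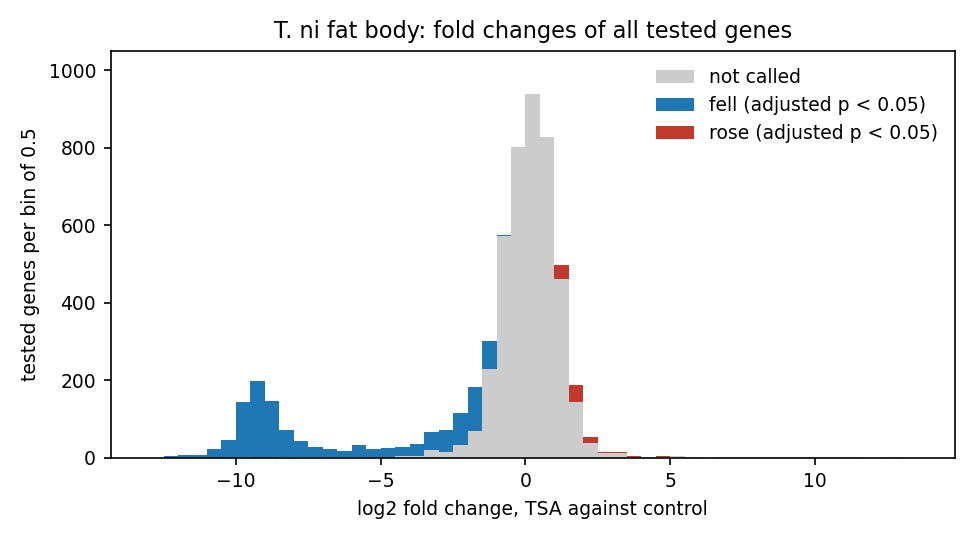
Number of tested genes (vertical axis) per bin of 0.5 in log2 fold change of TSA against control (horizontal axis). Grey bars are genes not called, blue bars genes that fell and red bars genes that rose at an adjusted p under 0.05. A separate mode of falls stands on the left, where 695 called genes lie between -11 and -7.

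The called falls covered a wide range, with a separate peak of deep ones. Of the called falls, 854 were larger than 4 log2 units (15.3% of all tested genes), with a quartile range from -9.54 to -8.08. The other 405 had a median of -2.05 and reached no further than -3.99. No gap parted them, as 101 called genes lay between -6 and -4. A further 17 genes had fitted values under -4 without passing the test. The limit of 4 log2 units is used here only to describe them.

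In the 854 genes with deep falls, the median level was 31.1, 32.9 and 111.8 CPM in control replicates 1, 2 and 3. It was 0.0654, 0.0567 and 0.0497 CPM in TSA replicates 1, 2 and 3 and 0.426 CPM in TSA replicate 4. In TSA replicates 1, 2 and 3 these medians are a single count per gene, so they differ from each other only through the scaling of the libraries. The groups thus stood far apart, with control replicate 3 the highest control and TSA replicate 4, of the same second library code, the highest TSA library. Groups did not overlap in 846 of these genes, a separation that the call and the limit of 4 log2 units favour. Of all tested genes, 40.5% had groups that did not overlap, with every TSA library lower in 27.2%. Control replicate 3 was the highest control in 98.6% of the 854 genes and TSA replicate 4 the highest TSA library in 84.5%. The shares were 54.5% and 37.7% of all tested genes, which include the 854, and 43.0% and 28.8% of genes not called. The filter favours genes that are high in control replicate 3, as only 495 of the 854 were still tested without it. With the library code as a term in the model, 846 of the 854 genes were still called as falls, and among libraries of the first code only, 572 of the 573 still tested.

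Taken as shares of the raw counts, these 854 genes took 4.45%, 10.01% and 22.9% of all counts in control replicates 1, 2 and 3. They took 0.0335%, 0.0357% and 0.0362% in TSA replicates 1, 2 and 3 and 0.0798% in TSA replicate 4. The widest 95% Wilson interval among these shares was 0.0182 percentage points to either side, and it covers counting error only. The shares differed between the controls by far more than this. A single gene of chromosome 3 gave 567904 of the 2049064 counts in control replicate 2. It was called with a log2 fold change of -8.41 although its groups overlapped, at 2962, 21315 and 5.35 CPM in the controls and 12.5 to 39.3 CPM under TSA.

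The control levels of the deep falls stood in nearly 1 ratio from gene to gene. Control replicate 2 was 1.05 times control replicate 1 at the median gene, with quartiles of 0.977 and 1.11. Control replicate 3 was 3.53 times control replicate 1, with quartiles of 3.08 and 4.03. Among genes not called, the quartiles were wider, from 0.55 to 1.38 for control replicate 2 and from 0.656 to 1.72 for control replicate 3. The 405 smaller falls lay between, at 1.13 times (quartiles 1.00 and 1.40) and 2.28 times (1.72 and 2.88). The call itself uses the spread between controls, so these ratios describe the called genes and were not tested. All ratios were taken after adding 0.1 CPM to each value. This is more than the median level of the deep falls in TSA replicates 1 to 3, so the offset understates ratios between TSA libraries for these genes.

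**Figure D2:**
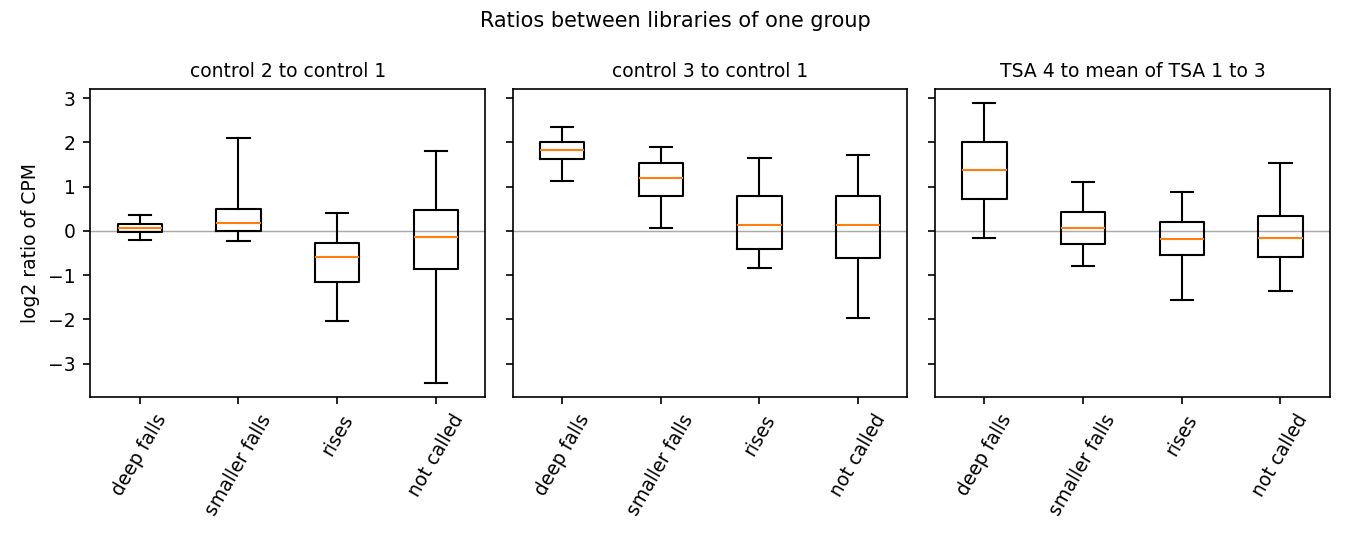
Log2 ratio of CPM between libraries of one group (vertical axis), with 0.1 CPM added, for genes with deep falls, smaller falls, rises and no call. Boxes span the quartiles, lines mark the median and whiskers run from the 5th to the 95th percentile of genes. Deep falls have narrow boxes near 0.07 for control 2 to control 1 and near 1.82 for control 3 to control 1, and lie mostly above 0 for TSA 4, where the offset understates the ratio.

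The filter on low counts bears on these genes. A gene near 0 under TSA was tested only if its controls were high enough to lift the mean of 7 libraries over 10 CPM. Under TSA, 757 tested genes had a mean under 1 CPM, of which 747 were deep falls. The lowest mean CPM inside the limit was 10.009 and the highest outside rounded to 10.0, with 252 genes up to 1 CPM above the limit and 298 up to 1 CPM below. Without control replicate 3, deep falls numbered 496. Of the original 854, 495 were still tested, and all 495 were still called as falls. In the table as a whole, with no CPM limit, 917 genes had at least 10 counts in every control and under 10 in every TSA library, and 9 genes had the reverse.

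Deep falls were found over a wide range of control levels, in CPM that are not corrected for gene length. The share at low control levels is limited by the filter, which a gene near 0 under TSA passes only through its controls, so that the 367 tested genes with a control mean under 10 CPM could hold none. Deep falls made up 6.63% of the tested genes with a control mean from 10 to 30 CPM, a range the filter still limits, 22.3% from 30 to 100, 28.9% from 100 to 300, 16.3% from 300 to 1000 and 8.54% above. Of the 854, 11 had no count in any TSA library and a further 148 had 1 to 3 counts in all TSA libraries together. With the 11 set at the limit that 3 counts over the 4 TSA libraries allow, 0.0432 CPM, the median of the deep falls was -9.004 in place of -9.02.

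Tni14G03050, on chromosome 14, had the largest fitted fall among genes whose groups did not overlap. It had 233, 444 and 1663 counts in the controls and 0 in each TSA library, or 15.2, 16.7 and 63.6 CPM against 0. Its mean in the controls was 31.8 ± 27.5 CPM (SD, n = 3), at least 737-fold higher than the level that 3 counts over the TSA libraries allow (edgeR, adjusted p = 0.00153). Control replicate 3 carries much of this. With the mean of control replicates 1 and 2 the bound was at least 369-fold, and without replicate 3 the gene was below the CPM limit and was not tested. The fitted value that ranked it first depends on the prior count of the edgeR fit, as its TSA counts are all 0. That prior count is the default of the fit and not the 2 used for log2 CPM.

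Tni15G06480, on chromosome 15, had the highest control mean among the falls without overlap. Its levels were 1756, 1790 and 7588 CPM in control replicates 1, 2 and 3. Under TSA they were 1.18, 0.908 and 0.745 CPM in replicates 1, 2 and 3 and 15.6 CPM in replicate 4. Every TSA library lay far below every control, and the log2 fold change was -9.65 with a standard error of 1.61 (edgeR, adjusted p = 0.00234). Among the controls, replicate 3 was the highest, as it was across the deep falls.

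**Figure D3:**
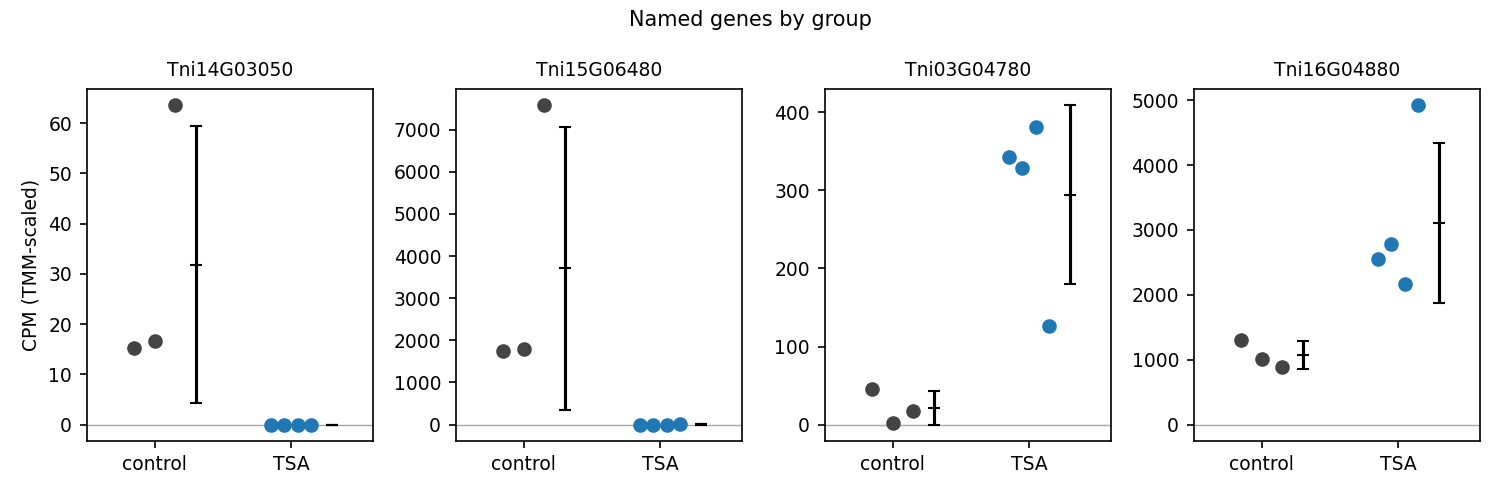
CPM (vertical axis, linear, 1 scale per gene) of the 4 named genes in 3 control and 4 TSA libraries. Points are libraries in replicate order, and the bars to their right show the mean and SD. Both falls are near 0 under TSA and highest in control replicate 3, and both rises lie above every control in each TSA library.

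The 405 smaller falls had a median of 24.9, 32.0 and 54.7 CPM in the controls and of 8.06 to 9.74 CPM in the TSA libraries. The groups did not overlap in 402 of them, a separation that the call itself favours. Of all tested genes, 40.5% had groups that did not overlap, with every TSA library lower in 27.2%. TSA replicate 4 was here close to the other TSA libraries and was the highest in 36.05% of genes. This compares with 37.7% of all tested genes and 28.8% of genes not called. Control replicate 3 was again the highest control, in 82.2%. Unlike the deep falls, these genes remained well detected, with a quartile range of 5.23 to 16.1 CPM under TSA.

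The 106 rises were moderate in size. Their log2 fold changes ran from 0.93 to 4.87 with quartiles of 1.41 and 1.98, and 26 of them exceeded 2. Their median level was 18.8, 10.3 and 19.1 CPM in control replicates 1, 2 and 3 and 52.2 to 57.6 CPM in the TSA libraries. These medians were thus alike over the TSA libraries, while control replicate 2 was the lowest control. Single genes differed more. The log2 ratio of TSA replicate 4 to the mean of TSA replicates 1 to 3 ran from -1.56 to 0.87 (5th to 95th percentile of genes). The groups did not overlap in 103 of the 106, a separation that the call itself favours. Of all tested genes, 13.3% had every TSA library above every control. The 106 rises took 0.702% to 0.928% of counts in the controls and 1.62% to 2.33% under TSA. The number of rises was 60 without control replicate 2, and without each of the other libraries it was higher, at 806 without control replicate 1, 207 without control replicate 3 and 275, 185, 255 and 389 without TSA replicates 1 to 4. Of the 106, 40 were still called without control replicate 2, 29 with library size only, 8 at an adjusted p under 0.01 and 87 with the library code as a term.

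Tni03G04780, on chromosome 3, had the largest rise without overlap between the groups. Its levels were 45.2, 2.21 and 18.0 CPM in the controls and 342.4, 328.2, 381.5 and 125.9 CPM in TSA replicates 1 to 4. The lowest TSA library was replicate 4, and the controls differed among themselves by a larger factor than the TSA libraries did. The log2 fold change was 3.76 with a standard error of 1.00 (edgeR, adjusted p = 0.0279). Without control replicate 1, the highest control, it was 5.54 (edgeR, adjusted p = 0.00508), and without control replicate 2 it was 3.20. Without control replicate 3 it was 3.56 and no longer passed (edgeR, adjusted p = 0.0979), and with the first library code only it was 3.84 (edgeR, adjusted p = 0.0958).

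Tni16G04880, on chromosome 16, had the highest TSA mean of the rises without overlap. It measured 1312, 1016 and 884.7 CPM in the controls and 2554, 2779, 2174 and 4925 CPM in TSA replicates 1 to 4. TSA replicate 4 was here the highest library. The log2 fold change of 1.54, with a standard error of 0.42 (edgeR, adjusted p = 0.0315), ranged from 1.33 to 2.06 with 1 library left out, and the call was lost without any 1 of the libraries other than control replicate 1 (edgeR, adjusted p from 0.066 to 0.101).

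A further rise on chromosome 3, at a log2 fold change of 4.87, was called although its groups overlapped. It was at 54.4, 13.2 and 21.3 CPM in the controls and at 1144, 1277 and 1033 CPM in TSA replicates 1 to 3, but at 16.4 CPM in TSA replicate 4. Its rise was therefore seen in TSA replicates 1 to 3 and not in replicate 4, the TSA library of the second library code. In SFN replicates 1 to 4 the gene was at 831.4, 8.97, 1754 and 727.4 CPM, with factors computed over all *T*. *ni* libraries. SFN replicate 4, of the second code, was thus high, and the lowest SFN library was of the first code. Whether the library code has a part in the levels of this gene was not tested.

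Falls were found on each of the 31 numbered chromosomes, in unequal shares, and 70 tested genes carry no chromosome number. Chromosome 1 had the highest share, with 82 of 214 tested genes fallen (38.3%), against 22.5% of all tested genes. Of these, 64 were deep falls (29.9% against 15.3%). Chromosome 26 came next, with 29 deep falls among 98 genes (29.6%). The lowest share of deep falls was on chromosome 12, at 8.46%, and the median of the 31 chromosomes was 15.3%. The deep falls of chromosome 1 were of the same size as elsewhere, with a median log2 fold change of -9.10 against -9.02 over all deep falls. Genes of a chromosome are not replicates, and these shares were not tested. The tested genes of chromosome 1 had a median control level of 43.9 CPM, against 34.5 CPM over all tested genes. Deep falls were more frequent at higher control levels, up to 300 CPM, and whether this bears on the share was not tested. Chromosome 1 had the highest share of falls in each of the 20 settings of the fit examined for this. The settings share most of their libraries and are not independent. Its share was 31.4% against 18.1% of all genes with the first library code only, and 29.6% against 17.4% without control replicate 3.

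**Figure D4:**
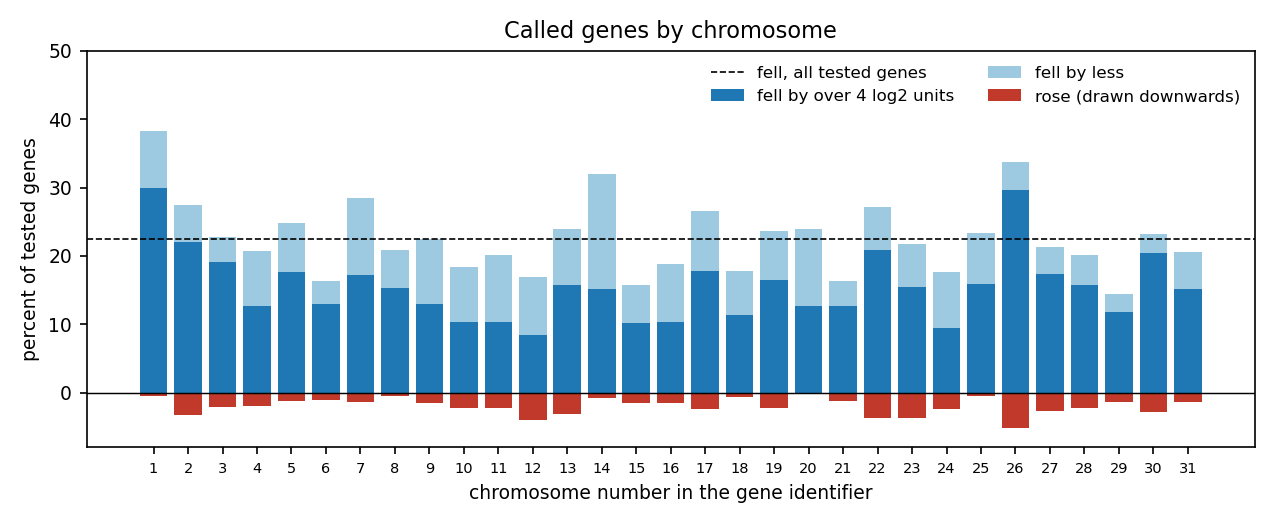
Percent of tested genes (vertical axis) that fell by over 4 log2 units (dark blue), fell by less (light blue) or rose (red, drawn downwards) on each chromosome numbered in the identifiers (horizontal axis). The dashed line marks the 22.5% of all tested genes that fell. Chromosomes 1, 26 and 14 stand furthest above it at 38.3%, 33.7% and 32.0%.

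Deep falls also lay next to each other along the identifiers. When a gene was a deep fall, the next tested gene on the chromosome was one as well in 250 of 832 pairs (30.05%). After a gene that was not, the next was a deep fall in 12.6% of pairs. The longest unbroken run was of 9 tested genes, on chromosome 5. The identifiers give the order of genes but not the distance between them, and these shares were not tested.

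The genes with the most counts were in another position. The 10 with the highest mean CPM had log2 fold changes between -0.94 and 1.77, and their lowest adjusted p was 0.152 (edgeR). Of these, 5 lie on chromosome 3. The pair with the most counts, Tni03G02130 and Tni03G02120, are neighbours in the identifiers and were picked after their values were seen. Together they took 24.04%, 7.39% and 11.6% of all counts in control replicates 1, 2 and 3 and 23.2%, 20.7%, 19.4% and 13.47% in TSA replicates 1 to 4. The groups overlapped, and the log2 fold changes were 0.46 and 0.56, each with a standard error of 0.57 (edgeR, adjusted p = 0.571 and 0.495).

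The number of genes detected does not depend on the calls. Genes with at least 10 counts numbered 9391, 10057 and 10463 in control replicates 1, 2 and 3 and 8344, 8170, 8350 and 8912 in TSA replicates 1 to 4. The groups did not overlap, with means of 9970.0 ± 541.2 (SD, n = 3) and 8444 ± 323.0 (SD, n = 4). The exact permutation test gave p = 0.0571 (two-sided), the smallest that 3 libraries against 4 allow, and 0.114 after Benjamini-Hochberg adjustment over both library measures tested. With a limit of 1 count the groups overlapped, since TSA replicate 4 had 11621 genes and control replicate 1 had 11483 (exact permutation test, two-sided p = 0.114, not adjusted). With all libraries thinned to 17625967 counts the numbers with at least 10 counts were 9331 to 10330 and 8168 to 8912. The share of counts in the 10 genes with the most counts of each library was 35.99% ± 15.2 (SD, n = 3) in controls and 39.0% ± 6.28 (SD, n = 4) under TSA, a difference within the spread between libraries (exact permutation test, two-sided p = 0.686, adjusted p = 0.686).

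The spread between libraries was described without a test. The median over tested genes of the SD of log2 CPM was 0.42 among TSA libraries and 0.77 among controls. Without the deep falls it was 0.38 and 0.68, and the SD was larger in the controls for 75.1% of the remaining genes. The size of this difference rests largely on control replicate 3. Without that library the difference, control minus TSA, was -0.0854 in place of 0.357. It was 0.441 and 0.223 without control replicates 1 and 2. With the first library code only, which also lacks control replicate 3, it was 0.034. A median SD over fewer libraries tends to be lower, so values with controls left out are not on the same footing as the full one.

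The SFN libraries of the same species were read for the same genes, with factors computed over all 11 *T*. *ni* libraries, so that their scale differs slightly from that of the values above. They share the controls with the TSA comparison. The deep falls had a median of 2.75 and 4.29 CPM in SFN replicates 1 and 2, and of 0.0435 and 0.375 CPM in SFN replicates 3 and 4. SFN replicate 4, of the second library code, was thus near TSA replicate 4, and SFN replicate 3 near TSA replicates 1 to 3, whose medians are a single count. Tni15G06480 followed the same order, at 154.3, 229.0, 1.04 and 16.5 CPM in SFN replicates 1 to 4. The smaller falls had 8.65 to 11.2 CPM and the rises 37.0 to 61.1 CPM over the SFN libraries.

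**Figure D5:**
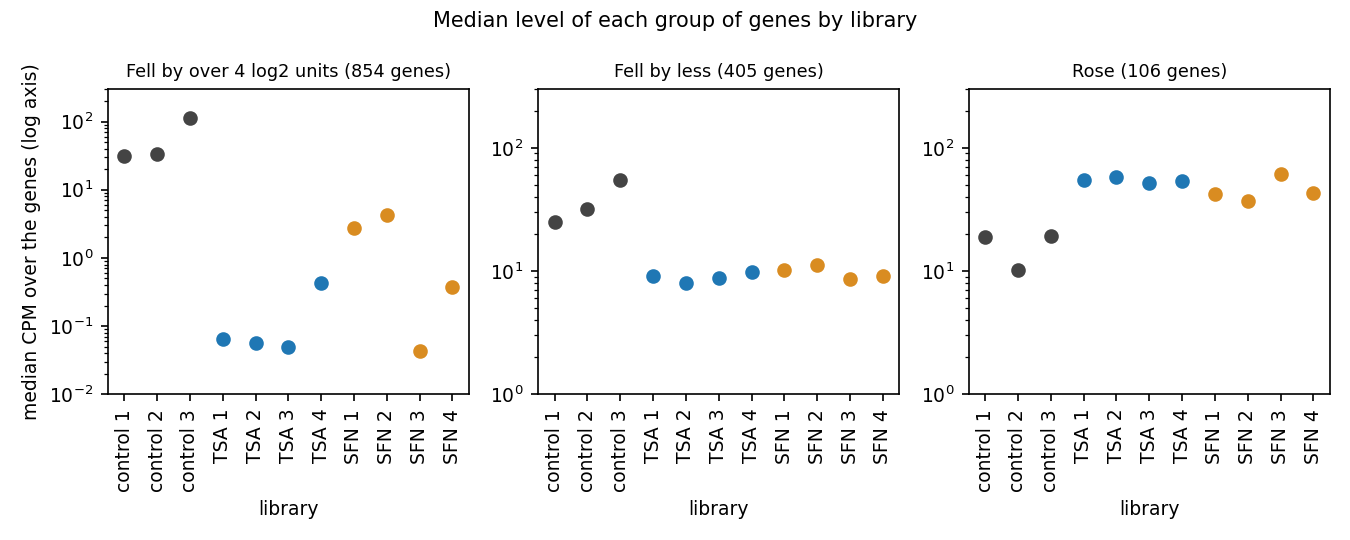
Median CPM (vertical axis, log scale) over the 854 deep falls, the 405 smaller falls and the 106 rises in each library, with controls in dark grey, TSA in blue and SFN in orange. The deep falls are at 31.1 to 111.8 CPM in controls, at 0.0497 to 0.426 CPM under TSA and at 0.0435 to 4.29 CPM under SFN. The smaller falls and the rises are nearly level over the TSA libraries.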

How the data were processed

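RNA was sequenced from *T*. *ni* fat body libraries, each a pool of 3 to 5 larvae, and assigned to control or TSA from the sample labels. The authors trimmed reads with Trimmomatic 0.39, aligned them with HISAT2 2.2.1 to the *T*. *ni* Cornell-1 genome and deposited raw counts per gene from featureCounts, with no normalization. Whether counting used strand is not given in the sources used here. All 11 *T*. *ni* columns were matched to samples, and 0 were left over. The normalized tables and the *S*. *exigua* tables were not used here.

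These counts were read into edgeR 4.0.16 (R 4.3.3). A gene was kept if its CPM averaged over 10 in the 7 libraries, and CPM are scaled by TMM factors. Treatment was the only term in the quasi-likelihood model, and p-values were adjusted over all tested genes by Benjamini-Hochberg, with calls at 0.05. The study's methods name a generalized linear model with triplicate samples paired, without its formula. The replicate number was left out of the model because TSA replicate 4 has no control of its number. Standard errors are those implied by the F statistic. Log2 CPM used a prior count of 2, and the fitted fold changes used the default prior count of edgeR. The model was tested on simulated data with fewer changed genes than were called here, where it recovered very large changes and missed moderate ones. A CPM of 10 is 176.3 to 211.8 counts per library.

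The named genes are, among called genes whose groups did not overlap, the largest fall, the fall with the highest control mean, the largest rise and the rise with the highest TSA mean. The comparison, the limit of 4 log2 units and the rules were chosen with earlier results of these data known. Gene lists by name could not be used. Alternatives were other scalings, filters, thresholds, tests (likelihood ratio, DESeq2 1.42.0), a replicate or library code term, all 11 *T*. *ni* libraries, the first library code only, and each library left out. Figures were drawn with matplotlib 3.10.9.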

Additional observations from a re-analysis of the deposited data

Results flagged for a closer look

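Among 13 sets of 4 TSA values examined, 3 had a library whose distance to the next was a larger part of their range than Dixon's 95% limit. That limit is passed by chance in about 1 in 20 independent sets of normally distributed values. The flagged sets come from genes called in this same comparison, so this rate is no baseline for them. All 3 were TSA replicate 4, of the second library code, and they overlap in content. Tni15G06480 was at 15.6 CPM there, against 0.745 to 1.18 CPM in the other TSA libraries. The summed level of the 854 deep falls was 855.7 CPM, against 357.8 to 404.6 CPM, and their median was 0.426 CPM, against 0.0497 to 0.0654 CPM. Those lower medians are a single count each, so their closeness follows from the similar depth of the libraries. Control replicate 3, also of the second code, had the highest level of the same genes among the controls. Whether the library code has a part in this was not tested.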

How the results depend on the processing

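The number of called genes was 1365, and 2303 with a mean CPM over 1, 2318 with no filter and 2263 by DESeq2's Wald test. It ranged from 1068 to 2026 with 1 library left out. The 1259 falls became 1953 with no filter and 861 to 1246 with 1 library left out. The 106 rises were the least stable. They numbered 35 with library size only, 546 with upper-quartile factors, 476 with a mean CPM over 1, 365 with no filter, 217 by the likelihood ratio test, 718 by DESeq2's Wald test, 182 with the library code as a term, 271 with all 11 *T*. *ni* libraries, 215 with the first library code only, 8 at an adjusted p under 0.01 and 13 against a minimum fold of 2. With 1 library left out they ranged from 60 to 806. The share of called genes that fell was 79.3% with a mean CPM over 1, 68.3% by DESeq2's Wald test and 80.9% with the first library code only.

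Of the 854 deep falls, 824 or more were still called in each alternative to the filter, scaling, test and model that tested all of them. Leaving out a library moved the median of all genes by 0.0997 to 0.309 on the log2 scale. Without control replicate 3 and with the first library code only, 495 and 573 were tested, of which 495 and 572 were called. With the replicate block, 1091 genes were called, with 41 rises of a median of 2.62, among them 22 of the 106, and with the block and all 11 *T*. *ni* libraries there were 252 rises. The deviations of libraries of the same number correlated at 0.0142, -0.0928 and -0.00594. These values were not the reason for leaving the number out of the main fit, which was that TSA replicate 4 has no control of its number. The difference between groups in the share of the 10 genes with the most counts (TSA minus control) was 3.01 percentage points, -2.05 with the first library code only, and -4.49 to 10.7 with 1 library left out. The spread among controls exceeded that under TSA by 0.357, by 0.034 with the first library code only, and by -0.0854 to 0.476 with 1 library left out. The number of genes with at least 10 counts was lower under TSA in every alternative run. Depth was similar in the 7 libraries, and levels under about 0.0432 CPM over the TSA libraries could not be told from 0.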

Other observations

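A further 33 tested genes had a fitted log2 fold change over 4 without being called, up to 12.7, with a lowest adjusted p of 0.0534 (edgeR). Their median control level was 1.30 CPM. In 26 of them TSA replicate 4 was the highest TSA library and in the other 7 TSA replicate 2. In 16 a single library held over 90% of the summed TSA level. These genes were therefore high in 1 or a few of the TSA pools rather than in all. TSA replicate 4 is the TSA library of the second library code.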
